A study of Homo sapiens with 9 samples.

Results

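ATF4, ATF5, DDIT3, PPP1R15A, PPP1R15B, ODC1, AMD1 and OAZ1 are 8 mRNAs of the stress response and of polyamine metabolism that are known from earlier work for control in or near their 5′ leader. They were chosen by name among the 19618 protein-coding genes of the annotation, not by any measured value, but with earlier results of these data known. Every peak of every library that overlapped one of them on its own strand was taken, which gave 1975 peaks of 2478204 in the 54 libraries. Of these, 271 lay in the leader or over the start codon.

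An upstream open reading frame (uORF) is a short reading frame that begins at an AUG in the leader, ahead of the coding sequence. Scanning ribosomes meet it first, and so it usually lowers translation of the protein below it. When eIF2 is phosphorylated in the integrated stress response, ribosomes that have left a uORF take longer to become ready for the next AUG, and mRNAs such as ATF4 are then translated better. Polyamines act on a related group of mRNAs: they stall ribosomes on the uORF of AMD1, and they promote the frameshift needed to make antizyme from OAZ1. DDX3 is a DEAD-box RNA helicase that helps ribosomes through structured leaders, and EIF3G is a subunit of eIF3, the initiation factor that sits on the scanning small subunit.

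The data are antibody-barcode eCLIP (ABC) libraries, in which RNA crosslinked by UV light to an RNA-binding protein (RBP) is tagged with the barcode of the antibody that captured it. A 10plex pool held barcoded antibodies to DDX3, EIF3G, FAM120A, IGF2BP2, LIN28B, PRPF8, PUM2, RBFOX2, SF3B4 and ZC3H11A in 1 tube, so 1 pool gave 10 libraries. There were 3 pools from K562, an erythroleukaemia line, and 2 pools from HEK293T, a kidney-derived line, so named in the titles, whereas the protocols give HEK293 and the methods HEK293XT. The 4 other libraries came from singleplex experiments, RBFOX2 in HEK293T (2) and SLBP in K562 (2). No stress or polyamine treatment is given for any sample, and the cells carry no engineered change named in the labels. Nothing says whether replicates were separate cultures. The p-values below measure how DDX3 and EIF3G stand among the 10 RBPs within these pools. They hold for these pools only and do not measure how well replicates agree. Labels were permuted in each pool on its own, although the same 10 RBPs recur in every pool. Libraries of the same RBP in different pools thus count as independent, and the p-values can be smaller than a permutation of whole RBPs would allow.

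The 2 HEK293T pools carry K562 in their cell line field and the same replicate number in their titles, and the third K562 pool carries "K563". Genes of the K562 lineage separated the pools as the titles do: HBG2, a fetal globin, had 2668 to 6824 peak reads in each K562 pool against 13 and 3 in the HEK293T pools, and GATA1 had 272 to 390 against 0 and 0. The 10plex libraries held 13351 to 2826823 peak reads, with DDX3 taking 4.47 to 7.17% of its pool and EIF3G 1.77 to 2.38%. Levels are given below in RPM, a gene's peak reads scaled to 1000000 peak reads of the library. The fewest reads in a peak here were 3, which stand for 6.37 to 24.3 RPM in a DDX3 library, 24 to 93.9 RPM in an EIF3G library and 1.06 to 225 RPM over all 50, so a level of 0 in a shallow library sets only that limit.

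The leaders were read from the reference. Of the 8 leaders, 7 held at least 1 upstream ATG, against 42.8% of the 19188 leaders of protein-coding genes. OAZ1 was the exception, with a leader of 79 nt and no upstream ATG, and its known control lies instead in the coding sequence. The other 7 leaders ran from 177 nt in DDIT3 to 406 nt in PPP1R15B, all longer than the median leader of 136 nt. Their GC content ran from 43.0% in AMD1 to 65.9% in ODC1, around a median of 64.5% over all leaders. ATF4 and DDIT3 held 3 upstream ATGs each, and 14.6% of all leaders held at least as many.

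The stretches below are the ones to which the binding data refer. In the first group, capitals mark runs of at least 4 G or C bases in the middle of the 2 ODC1 stretches that lay under DDX3 peaks in all 5 pools. In the second, capitals mark ATG and, where the whole uORF is shown, its stop codon.
ODC1 leader, 5′ stretch: aGCCGCCGCCGCCGCCGCCCGCCGCCCCtc
ODC1 leader, stretch before the uORF: GCGCtcctGCGGCtgcgactcaggctCCGG
ODC1 uORF start: cgtctgcgcttccccATGgggctggcctgc
ATF4 whole uORF 2: ATGgcgtatTAG
ATF5 whole uORF 1: ATGgctctgTAG
PPP1R15B whole uORF 1: ATGgtgttgaagcgtcgagccgacTAG
AMD1 whole uORF: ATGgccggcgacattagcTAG
DDIT3 uORF 1 start: ggcactgagcgtatcATGttaaagatgagc
OAZ1 start codon: gaccccagcggccggATGgtgaaatcctcc

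In GRCh38 the first 3 lie in exon 1 of ODC1 on the minus strand, at chr2:10448283-10448312, chr2:10448170-10448199 and chr2:10448140-10448169. The ATF4 uORF is at chr22:39520648-39520659 and the ATF5 uORF at chr19:49929274-49929285, both on the plus strand. The PPP1R15B uORF is at chr1:204411664-204411690 on the minus strand, and the AMD1 uORF is at chr6:110874796-110874816 on the plus strand. The DDIT3 stretch is at chr12:57520466-57520495 on the minus strand, and the OAZ1 stretch is at chr19:2269584-2269613 on the plus strand. All lie in 5′ leaders of the canonical transcripts except the OAZ1 stretch, which runs into the coding sequence. ATF4 uORF 2 and ATF5 uORF 1 have the same length of 3 codons before the stop, and in both mRNAs the last uORF, of 59 codons, starts further down and overlaps the coding sequence in another frame. Positions below count along the spliced mRNA, with the A of the start codon as 0.

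The comparison at the centre of the design is between each RBP and the others of its pool. The question asked here was whether leader and start codon peaks of the 8 mRNAs carried more DDX3 and EIF3G signal than signal of the other 8 RBPs, apart from the rest of the gene. In K562, ODC1, OAZ1 and PPP1R15B did, 3 of the 8 members, and in HEK293T ATF4, ODC1, OAZ1 and PPP1R15B did, 4 of the 7 members that could be tested. Over all genes tested, 35.3% were called in K562 (1349 of 3818) and 35.0% in HEK293T (2139 of 6114), so a member count of 3 or 4 is near what leaders in general gave. DDIT3, AMD1 and PPP1R15A were not called in either line, and ATF5 was not called in K562. The test was an exact one-sided permutation test of which 2 of the 10 libraries of each pool carry the labels DDX3 and EIF3G, on log2(RPM + 10), adjusted by Benjamini-Hochberg over all genes tested. A gene was tested with a leader or start peak in at least 3 libraries of the line, and ATF5 failed this filter in HEK293T. Peaks of DDX3 and EIF3G alone can pass it, as for 75 genes in K562 and 44 in HEK293T, all of them called and none of them a member, and without these genes the shares called were 34% and 34.5%.

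**Figure D1:**
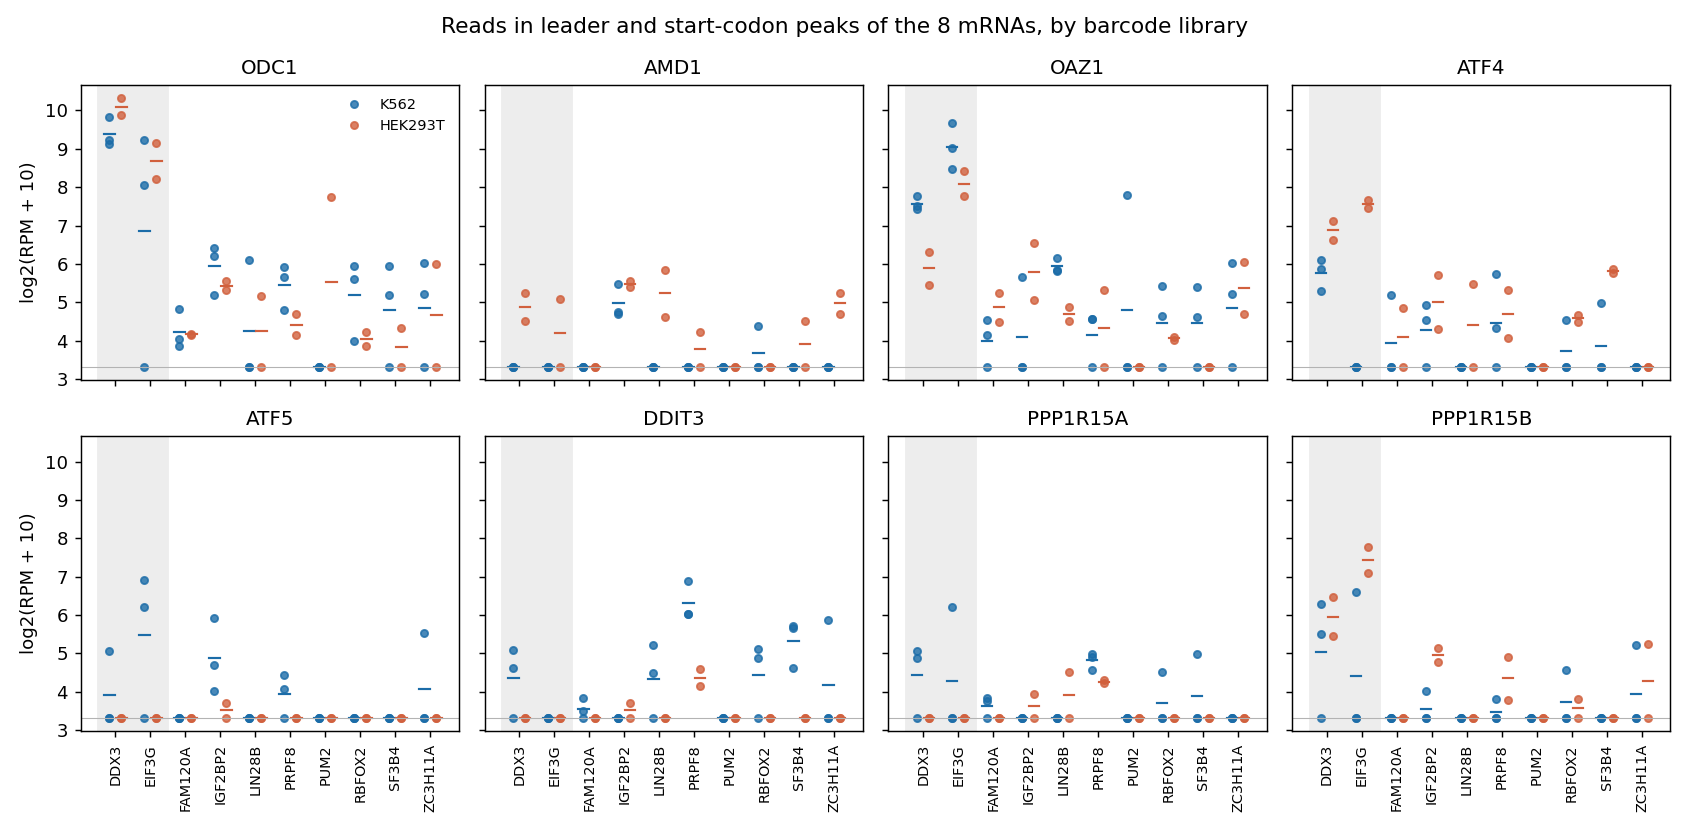
Leader and start codon level of the 8 mRNAs by RBP. Each point is 1 pool (K562 or HEK293T), the vertical axis is log2(RPM + 10), bars are means over the pools of a line, and grey marks DDX3 and EIF3G. Among the RBPs, DDX3 has the highest ODC1 level in each pool, 550.1 to 1265 RPM, and EIF3G the highest OAZ1 level, 208 to 814 RPM.

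ODC1, the rate-limiting enzyme of polyamine synthesis, carried the most DDX3 signal. Its leader level in DDX3 was 592, 550.1 and 899.9 RPM in the 3 K562 pools, from 73, 93 and 184 reads, and 1265 and 928 RPM in the 2 HEK293T pools, from 453 and 437 reads. In EIF3G it was 0, 255 and 594 RPM in K562 and 554 and 288 RPM in HEK293T, from at most 40 reads. The other 8 RBPs lay between 0 and 75.7 RPM in K562, with a median of 22.3 RPM. In HEK293T they lay between 0 and 206 RPM with a median of 8.43 RPM, and the highest value was 4 reads of PUM2, the shallowest library. DDX3 therefore lay above every library of the other 8 RBPs in all 5 pools, whereas EIF3G did so in K562 replicates 2 and 3 and in both HEK293T pools and was without a leader peak in K562 replicate 1.

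The log2 difference of DDX3 and EIF3G from the other 8 at the ODC1 leader was 3.38 in K562 (1.84, 3.65 and 4.64 by replicate; adjusted p = 0.00187, exact one-sided permutation test). In HEK293T it was 4.84 (5.29 and 4.4 by replicate; adjusted p = 0.00355, exact one-sided permutation test), and only 6 of the 6114 genes tested showed a larger difference. DDX3 alone against the other 9 gave 4.4 in K562 and 5.09 in HEK293T, with adjusted p = 0.00612 and 0.0327 in the exact permutation test. That test called 47.4% of genes in K562 and 41.3% in HEK293T. Of the 8 members it called ODC1 in both lines and ATF4 in K562.

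The DDX3 peaks of ODC1 fell on the same parts of exon 1 in every pool. The bases from -333 to -275 and from -243 to -140 lay under DDX3 peaks in all 5 pools. These 59 and 104 nt have a GC content of 79.7% and 79.8%, against 65.9% for the whole leader, and they hold the GC-rich stretches printed above. The ATG of the ODC1 uORF, at -161, lies inside the downstream stretch and was covered by a DDX3 peak in 3 K562 and 2 HEK293T pools and by an EIF3G peak in 1 and 2 pools. Among the 24 K562 and 16 HEK293T libraries of the other RBPs, a peak covered it in 1 (SF3B4) and 2 (IGF2BP2 and RBFOX2). The start codon of ODC1 itself was under no DDX3 peak, under 1 EIF3G peak, of 3 reads in K562 replicate 2, and under peaks of other RBPs in 2 K562 libraries and 1 HEK293T library.

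**Figure D2:**
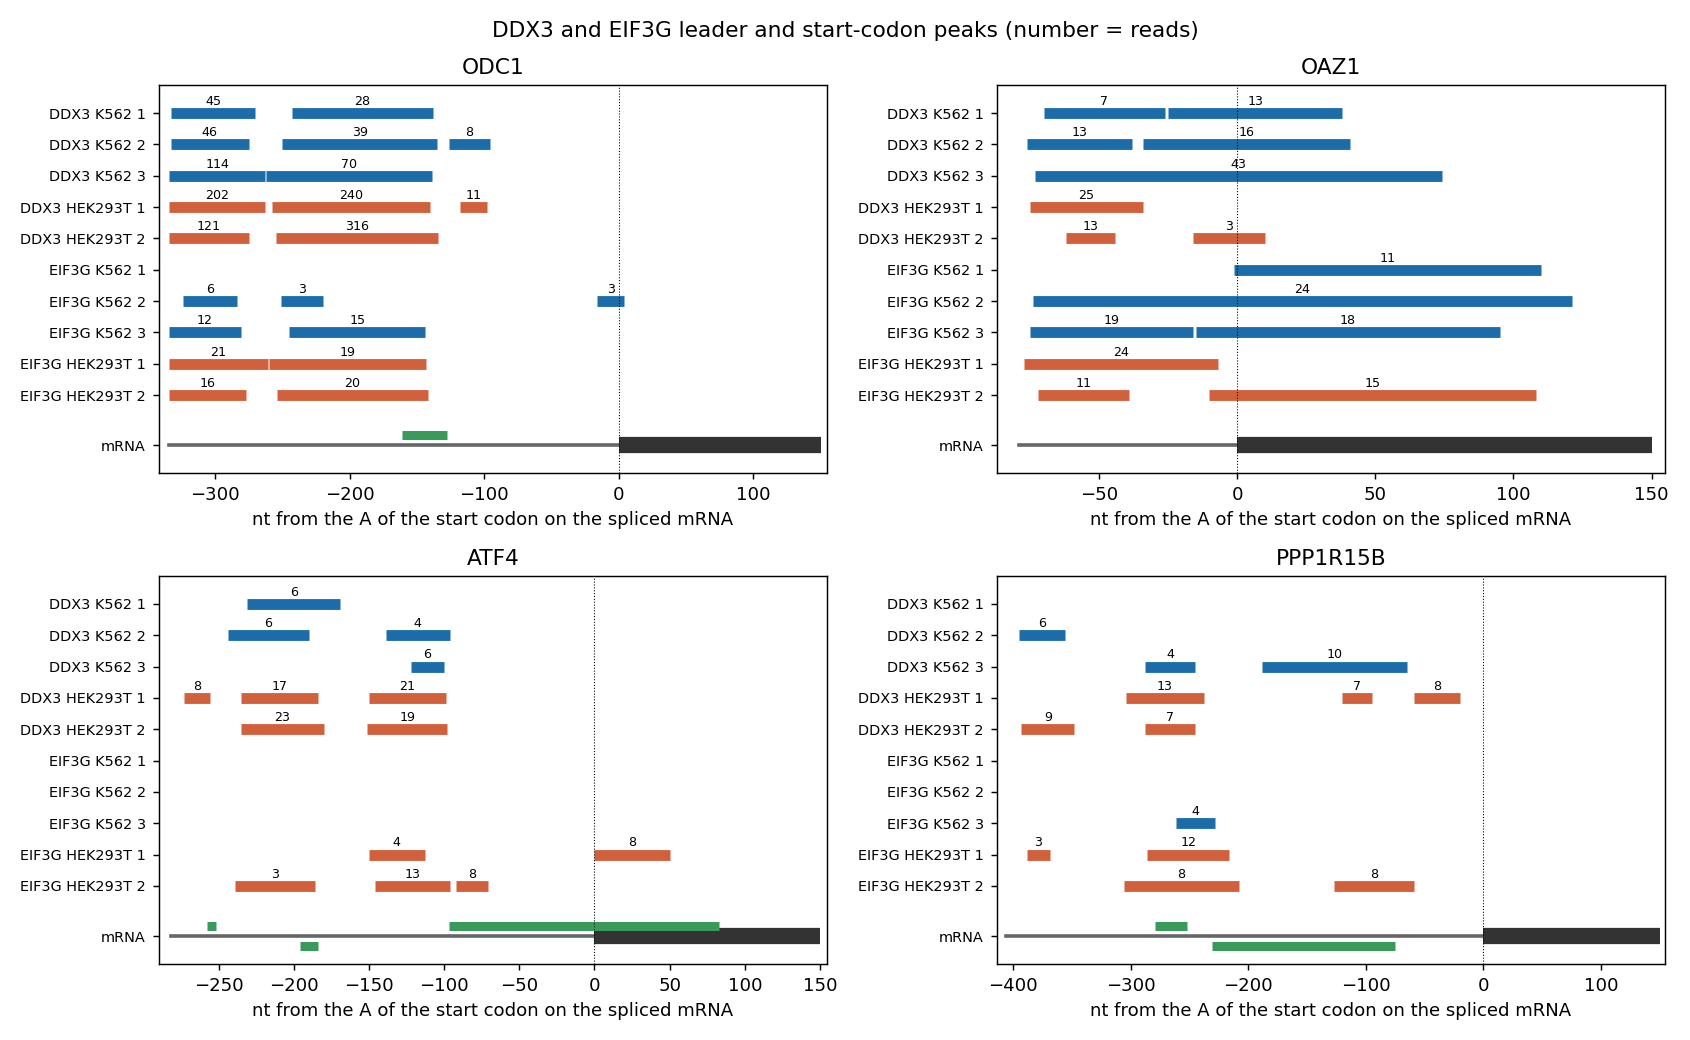
DDX3 and EIF3G peaks on the spliced leaders of ODC1, OAZ1, ATF4 and PPP1R15B by pool. The horizontal axis is the position in nt from the A of the start codon, numbers are reads in the peak, green bars are uORFs and dark bars the coding sequence. The ODC1 peaks of all 5 DDX3 pools end upstream of the start codon, whereas those of OAZ1 reach it in 3 K562 DDX3 pools and 3 K562 EIF3G pools.

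OAZ1, antizyme, which binds ODC1 and sends it to the proteasome, showed the reverse order of the 2 RBPs. Its leader and start level in EIF3G was 344, 511 and 814 RPM in K562, from 11, 24 and 37 reads, and 333 and 208 RPM in HEK293T, from 24 and 26 reads. In DDX3 it was 162, 172 and 210.3 RPM in K562 and 69.8 and 34.0 RPM in HEK293T. The other 8 RBPs reached 211.5 RPM in K562 (4 reads of PUM2 in replicate 2), with a median of 13.6 RPM, and 82.8 RPM in HEK293T (78 reads of IGF2BP2 in replicate 2). EIF3G thus lay above all other libraries of its own pool in the 3 K562 and 2 HEK293T pools. DDX3 lay above the other 8 in 3 pools and below PUM2 in K562 replicate 2 and IGF2BP2 in HEK293T replicate 2.

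The log2 difference of the pair at OAZ1 was 3.72 in K562 (3.79, 3.58 and 3.79 by replicate; adjusted p = 0.000463, exact one-sided permutation test) and 2.52 in HEK293T (2.8 and 2.24; adjusted p = 0.0116, exact one-sided permutation test). A larger difference was found for 2.12% of genes in K562 and 10.8% in HEK293T. EIF3G alone gave 4.13 in K562 (adjusted p = 0.0225) and 3.46 in HEK293T (adjusted p = 0.101) in the exact permutation test. With EIF3G alone, 5.32% of genes were called in K562, and OAZ1 was the member among them. In HEK293T the same test called 0 of 6114 genes, where the smallest p that 2 pools allow is 0.01. Unadjusted, 1054 genes (17.2%) had p under 0.05 there, with ATF4, OAZ1 and PPP1R15B among them.

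On OAZ1 the peaks reached the start codon. A DDX3 peak covered it in 3 K562 pools and 1 HEK293T pool, and an EIF3G peak did so in 3 and 1. Among the other RBPs, 3 K562 and 2 HEK293T libraries had a peak there, of IGF2BP2, LIN28B or FAM120A. The bases from -62 to -44, 19 nt with 89.5% GC, were under DDX3 peaks in all 5 pools. In the 3 K562 pools the bases from -70 to -38 (81.8% GC) and from -34 to 2 (64.9% GC) were, against 69.6% for the whole leader. ENSG00000273734, a protein-coding gene on the same strand, overlaps OAZ1 from its leader on, so reads of the 2 genes cannot be told apart there.

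AMD1, the S-adenosylmethionine decarboxylase that supplies the aminopropyl groups of spermidine and spermine, behaved otherwise. Its leader level in DDX3 was 0 in the 3 K562 pools and 27.9 and 12.7 RPM in the HEK293T pools, and in EIF3G it was 0 in 4 pools and 24.0 RPM in HEK293T replicate 2. IGF2BP2, an mRNA-binding protein, had a leader peak in every pool, at 15.9, 16.8 and 34.8 RPM in K562 and 37.3 and 31.8 RPM in HEK293T. The log2 difference of DDX3 and EIF3G was -0.25 in K562 and 0.37 in HEK293T (adjusted p = 1 and 0.321, exact permutation test). No library of any RBP had a peak over the ATG of the AMD1 uORF at -310, whose leader is the least GC-rich of the 8.

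ATF4, the transcription factor that drives the integrated stress response, was called in HEK293T. Its leader level in DDX3 was 48.6, 59.2 and 29.3 RPM in K562, from 6, 10 and 6 reads, and 128.5 and 89.1 RPM in HEK293T, from 46 and 42 reads. In EIF3G it was 0 in each K562 pool and 166 and 192 RPM in HEK293T, from 12 and 24 reads. The other 8 RBPs ranged from 0 to 43.1 RPM in K562 and from 0 to 48.9 RPM in HEK293T, where SF3B4 was highest in both pools. In HEK293T both RBPs lay above the other 8 in each pool, and in K562 replicate 3 DDX3 lay below PRPF8. The log2 difference was 2.81 in HEK293T (3.30 and 2.32; adjusted p = 0.00355, exact one-sided permutation test) and 0.76 in K562 (1.28, 0.96 and 0.04; adjusted p = 0.0958). DDX3 alone gave 2.03 in K562 (adjusted p = 0.00945) and 2.12 in HEK293T (adjusted p = 0.0772) in the same exact permutation test.

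The position of the ATF4 peaks can be set against its 3 uORFs, at -258, -196 and -97. The bases from -235 to -184 and from -150 to -99 lay under DDX3 peaks in both HEK293T pools. Their GC content was 65.4% and 71.2%, against 59.6% for the whole leader. The first of these stretches holds the whole of uORF 2, whose ATG was under a DDX3 peak in 2 K562 and 2 HEK293T pools and an EIF3G peak in 1 HEK293T pool. Peaks of other RBPs covered that ATG in 1 K562 library (PRPF8) and 3 HEK293T libraries (IGF2BP2, RBFOX2 and SF3B4). The second ends just ahead of the ATG of uORF 3, which overlaps the ATF4 coding sequence and was under no DDX3 or EIF3G peak in whole (a DDX3 peak in K562 replicate 2 and an EIF3G peak in HEK293T replicate 2 ended inside it), though peaks of other RBPs covered it in 3 K562 and 6 HEK293T libraries. The ATF4 start codon was under an EIF3G peak in 1 HEK293T pool, with 8 reads, under no DDX3 peak, and under a peak of PRPF8, RBFOX2 or SF3B4 in 3 HEK293T libraries.

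ATF5, a related factor with 2 uORFs where ATF4 has 3, had few leader reads. In K562 its EIF3G level was 0, 63.8 and 110.0 RPM, from 0, 3 and 5 reads, and its DDX3 level was 0, 23.7 and 0 RPM. IGF2BP2 had a leader peak in each K562 pool, at 15.9, 50.4 and 6.14 RPM. In HEK293T the only leader peak of any RBP held 3 reads of IGF2BP2. The log2 difference in K562 was 1.01 (-0.31, 1.62 and 1.71; adjusted p = 0.0731, exact one-sided permutation test), and neither uORF start was covered by a DDX3 or EIF3G peak.

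DDIT3 (CHOP), the pro-apoptotic factor downstream of ATF4, carried leader reads mainly of PRPF8, a core protein of the spliceosome. PRPF8 stood at 108, 55.8 and 55.2 RPM in K562 and 7.76 and 13.96 RPM in HEK293T. DDX3 stood at 24.3, 0 and 14.7 RPM in K562 and at 0 in HEK293T, and EIF3G at 0 in all 5 pools. The log2 difference of the pair was -0.51 in K562 (adjusted p = 0.993) and -0.16 in HEK293T (adjusted p = 1, exact permutation test), and 99.4% of genes in K562 had a larger one. PRPF8 peaks on this leader met the mRNA at -33 and -81, where leader exons end, and ran from there into the introns. ENSG00000285133 overlaps these exons on the same strand, and its reads cannot be told apart from those of DDIT3.

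The 2 regulatory subunits that guide protein phosphatase 1 to eIF2 differed from each other. PPP1R15B (CReP), the constitutive subunit, had a leader level in EIF3G of 0, 0 and 88.0 RPM in K562 and of 208 and 128 RPM in HEK293T, from 15 and 16 reads. In DDX3 it was 0, 35.5 and 68.5 RPM in K562 and 78.2 and 34.0 RPM in HEK293T, from 28 and 16 reads. The other 8 RBPs ranged from 0 to 27.4 RPM in K562 and from 0 to 28.1 RPM in HEK293T, so both RBPs were above all of them in HEK293T, and in K562 neither had a peak in replicate 1. The log2 difference was 2.89 in HEK293T (3.31 and 2.47; adjusted p = 0.00355) and 1.23 in K562 (0.00, 0.85 and 2.83; adjusted p = 0.0231), both by exact one-sided permutation test. Without K562 replicate 2 the K562 call was lost (1.42, adjusted p = 0.0815, exact permutation test), and without replicate 3 too few libraries had a peak for a test.

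On PPP1R15B the bases from -288 to -245 lay under DDX3 peaks and those from -286 to -216 under EIF3G peaks in both HEK293T pools. Their GC content was 56.8% and 59.2%, below the 62.8% of the whole leader. Both stretches hold the whole of uORF 1, printed above, and the EIF3G stretch also holds the ATG of uORF 2 at -231. Of the other RBPs, RBFOX2 in 1 K562 library and PRPF8 in 1 HEK293T library had a peak over the ATG of uORF 1. PPP1R15A (GADD34), the stress-induced subunit, had no DDX3 or EIF3G leader peak in HEK293T. In K562 it had 0, 23.7 and 19.6 RPM in DDX3 and 0, 63.8 and 0 RPM in EIF3G, each from at most 4 reads, while PRPF8 had 13.8, 20.3 and 21.5 RPM. Its log2 difference was 0.69 in K562 (-0.58, 2.06 and 0.57; adjusted p = 0.0906, and 0.0373 without replicate 1) and -0.23 in HEK293T (adjusted p = 1, exact one-sided permutation test).

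Over the members, the median log2 difference was 0.88 in K562 and 2.52 in HEK293T, beside 0.62 and 0.79 over all genes tested. The difference was above 0 in 6 of 8 members in K562 and 5 of 7 in HEK293T, beside 80.6% and 86.3% of all genes. Of the 7 members tested in both lines, ATF4, ODC1, OAZ1 and PPP1R15B were above 0 in both, as were 2588 of 3301 genes. Levels of the 2 lines are set side by side without a test, because 3 pools against 2 are too few for a two-sided exact test to pass the threshold, and less mRNA in a line cannot be told apart from less binding per mRNA. By mean level, HEK293T held more DDX3 and EIF3G signal than K562 on the leaders of ATF4, PPP1R15B, ODC1 and AMD1. It held less on those of OAZ1, ATF5 and PPP1R15A. On DDIT3 it held less DDX3 signal, and EIF3G had no leader peak in either line.

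**Figure D3:**
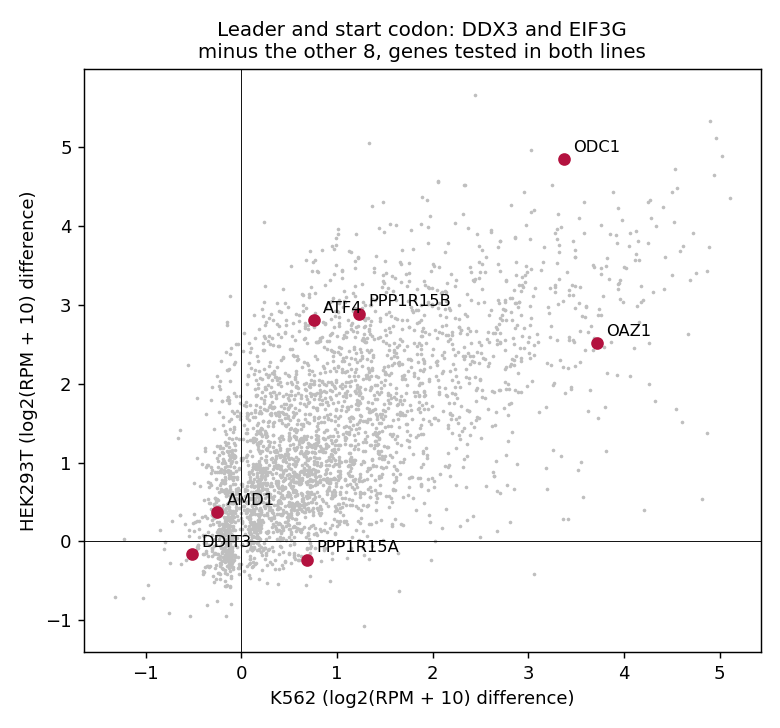
Log2 difference of DDX3 and EIF3G from the other 8 RBPs at the leader and start codon, K562 on the horizontal and HEK293T on the vertical axis. Grey points are the 3301 genes tested in both lines and labelled points the 7 members tested in both. ODC1, OAZ1, ATF4 and PPP1R15B lie above 0 on both axes, with ODC1 at 3.38 and 4.84.

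Apart from the leader and start codon, the same 8 genes gave no call. The members called in the rest of the gene were 0 of 8 in each line, by the same exact permutation test, which called 0.0586% of genes in K562 (6 of 10233) and 0 of 11986 in HEK293T. Unadjusted, no member had p under 0.05 for the pair, and 202 and 348 genes did. For EIF3G alone in HEK293T, OAZ1 had an unadjusted exact permutation p of 0.04, as 1.3% of genes had p under 0.05. The median log2 difference of the members was -0.97 in K562 and -0.55 in HEK293T, beside -0.59 and -0.40 over all genes. ODC1, called at its leader with a difference of 3.38 and 4.84, stood at 0.53 and -0.14 in the rest of the gene. OAZ1 stood at -0.19 in K562 and 0.55 in HEK293T, and its K562 value was 1.1 when peaks were placed by their centre. By RBP, the rest of OAZ1 lay above the other 9 for DDX3 in each K562 pool (0.68, 1.02 and 0.58) and for EIF3G in both HEK293T pools (1.60 and 0.59).

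**Figure D4:**
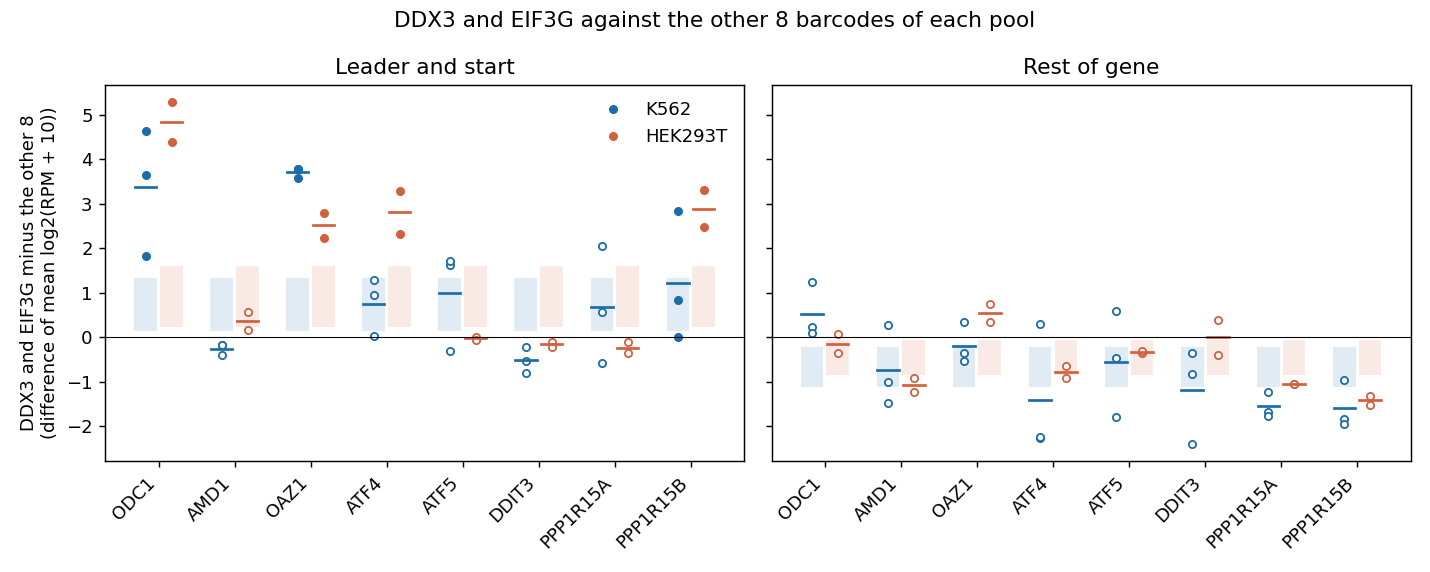
Log2 difference of DDX3 and EIF3G from the other 8 RBPs for each member, at the leader and start codon and in the rest of the gene, in K562 and HEK293T. Filled symbols are calls at an adjusted p under 0.05, and shading spans the quartiles of all genes tested. Calls are limited to the leader panel, 3 in K562 and 4 in HEK293T. In the rest of the gene the means of the members lie at or below 0.55, and single pools reach 1.25 (ODC1, K562 replicate 2).

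On AMD1, PPP1R15B and ATF4, most reads in the rest of the mRNA were of FAM120A. FAM120A, an RBP of 3′ UTRs, gave 93.0% of the 3′ UTR reads of AMD1 in K562 and 90.5% in HEK293T, and the 3′ UTR held 83.5% and 76.9% of all its reads outside the leader. On PPP1R15B the 3′ UTR held 83.9% and 86.9% of such reads, with FAM120A at 84.7% and 88.1% of them. On ATF4, whose 3′ UTR has 81 nt, the coding sequence held 88.1% and 95.0%, with FAM120A at 81.5% and 64.1%. FAM120A libraries also took 24.6 to 36.8% of the reads of their pools, so a share of reads is not a level.

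The hosted snoRNA SNORA80B lies in an intron of ODC1 at chr2:10446714-10446849 and held 83.4% of the ODC1 reads outside the leader in K562 and 74.4% in HEK293T. Those reads came from all 10 RBPs, with RBFOX2 at 20.4% in K562 and FAM120A at 19.1% in HEK293T as the largest parts. Of all DDX3 reads on the ODC1 gene, the leader held 48.3, 51.7 and 47.6% in K562 and 90.8 and 86.9% in HEK293T. On OAZ1 the leader and start codon held 64.7, 88.9 and 92.5% of the EIF3G reads in K562 and 37.5 and 37.7% in HEK293T.

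The study's own measure of an enriched peak is P under 0.001 and a fold above 8 over the complement control, made of what the 9 remaining barcodes of the pool gave in that region. An enriched DDX3 leader peak in every K562 pool was found for ODC1, 1 of the 8 members, beside 4.6% of genes with a leader peak, and an enriched EIF3G peak in every K562 pool for no member, beside 1.66%. The ODC1 count rests on K562 replicate 3, where peaks in repeats kept their value, and was 0 with repeats left out there too or at P under 1e-05 and fold above 16. In HEK293T no member had an enriched DDX3 peak in both pools, beside 9.57%, and PPP1R15B had an enriched EIF3G peak in both, beside 3.04%. The EIF3G peaks of PPP1R15B over uORF 1 reached log2 folds of 4.04 and 4.05, with 12 and 8 reads. DDX3 peaks on ATF4 in HEK293T had log2 folds of 1.01 to 2.53 and none passed the fold of 8. For DDIT3, PRPF8 peaks were enriched in both HEK293T pools, beside 1.67% of genes, and in K562 replicate 1, beside 7.07%.

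In single K562 pools, 1 of 7, 2 of 8 and 2 of 8 members with a leader peak had an enriched DDX3 peak, beside 22.4, 27.8 and 23.0% of genes. They were ODC1 in each pool and PPP1R15B in replicates 2 and 3. In the HEK293T pools 1 of 7 (ODC1) and 1 of 8 (PPP1R15B) did, beside 26.0 and 19.0%. For EIF3G, ODC1 and PPP1R15A were enriched in K562 replicate 2 (8.69% of genes), ATF5, OAZ1 and PPP1R15B in K562 replicate 3 (8.84%), PPP1R15B in each HEK293T pool (9.28 and 7.86%), and no member in K562 replicate 1 (5.54%). The K562 peaks behind the EIF3G calls of ODC1, PPP1R15A, ATF5 and PPP1R15B held only 3, 3, 5 and 4 reads.

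The count for ODC1 in HEK293T is limited by the files. Peaks in annotated repeats had been taken out of the complement comparison in K562 replicates 1 and 2 and in both HEK293T pools, and most exon 1 peaks of ODC1 carry no such value there. In HEK293T those without a value held 98.8% of the DDX3 and 100% of the EIF3G leader reads of ODC1. In HEK293T replicate 1 the 2 DDX3 peaks held 240 and 202 reads, beside 38 and 55 reads in overlapping peaks of the other 9 barcodes, with DDX3 at 7.17% of the pool. In K562 replicate 3, where repeats were kept, the 2 DDX3 peaks had log2 folds of 4.02 and 4.38 from 70 and 114 reads. The same gap took 92.7% of the DDX3 and 70.0% of the EIF3G reads on the OAZ1 leader in HEK293T.

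Genes related to the 8 by pathway were read the same way, from 4 lists of 12 genes, with AZIN1 in 2 of them. Among the eIF2 kinases, eIF2 subunits and eIF2B subunits, 2 of 6 tested were called at the leader in K562 (EIF2AK1 and EIF2S2) and 1 of 7 in HEK293T (EIF2AK1), with median differences of 0.78 and 0.64. EIF2AK1, the haem-regulated eIF2 kinase, chosen after its values were seen, had a mean leader level in DDX3 of 119.7 RPM in K562 and 95.4 RPM in HEK293T. Among other mRNAs with regulatory uORFs, 5 of 11 were called in each line, AZIN1, CDKN1B, EPRS1 and TRIB3 in both, UCP2 in K562 and MDM2 in HEK293T, with medians of 0.74 and 1.18. MDM2 passed the filter there through DDX3 and EIF3G peaks alone and so had to differ. The counts of both lists stand beside the 35.3% and 35.0% of all genes and their medians of 0.62 and 0.79.

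Of the eIF2 genes with a leader peak, 1 of 8 had an enriched DDX3 peak in every K562 pool and 2 of 10 in both HEK293T pools. Of the other uORF mRNAs, 1 of 12 and 2 of 12 did, beside 4.6% and 9.57% of all genes. For EIF3G these counts were 0 of 8 and 0 of 10, and 1 of 12 and 2 of 12, beside 1.66% and 3.04%. CDKN1B, the cell cycle inhibitor p27, had an enriched EIF3G leader peak in every pool of both lines, with a mean fold over the complement control of 38.2 in K562 and 19.4 in HEK293T. Its EIF3G level was 125, 340.4 and 352 RPM in K562 and 180.1 and 128 RPM in HEK293T. TRIB3, a pseudokinase that is itself induced by ATF4, had an enriched DDX3 peak in every pool, with folds of 19.9 and 20.6 and levels of 324, 296 and 200.5 RPM in K562 and 50.3 and 57.3 RPM in HEK293T. AZIN1, the antizyme inhibitor, had an enriched EIF3G peak in both HEK293T pools, at 457 and 152 RPM. DDX3 peaks enriched in both HEK293T pools were also found for the eIF2 kinases EIF2AK3 (PERK) and EIF2AK4 (GCN2), with mean folds of 17.3 and 9.7, and for MDM2, at 9.43. EIF2AK3 stood at only 13.97 and 10.61 RPM and had too few leader peaks for the level test. In a DDX3 library of HEK293T, 3 reads stand for 6.37 to 8.38 RPM. EIF2S2, the beta subunit of eIF2, had an enriched DDX3 peak in every K562 pool, with a mean fold of 13.2.

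Among the other polyamine genes, 4 of 6 tested were called in K562 (AZIN1, EIF5A, SMS and SRM) and 4 of 7 in HEK293T (AZIN1, EIF5A, OAZ2 and SRM), with medians of 1.46 and 1.96, beside the same 35.3% and 35.0% of all genes and medians of 0.62 and 0.79. SRM passed the filter in K562 through DDX3 peaks alone and so had to differ there. SRM, spermidine synthase, had an enriched DDX3 peak in every pool of both lines, with mean folds of 21.1 and 17.5. It was the only such gene of the 9 in K562 and 10 in HEK293T with a leader peak, beside 4.6% and 9.57% of all genes. For EIF3G, 0 of 9 and 1 of 10 (AZIN1) had such a peak, beside 1.66% and 3.04%. Among ATF4 target genes, 3 of 7 were called in K562 (CEBPG, DDIT4 and SESN2) and 7 of 9 in HEK293T, which added ASNS, PHGDH, PSAT1 and SLC7A11, with medians of 1.05 and 1.85, against that same background. SESN2, a stress-induced sestrin, had an enriched DDX3 peak in every pool, with mean folds of 8.78 and 21.5. In both HEK293T pools SLC7A11, a cystine transporter subunit, had an enriched EIF3G peak (mean fold 20.6), and XPOT and CHAC1 had enriched DDX3 peaks (10.1 and 9.56). CHAC1 stood at only 16.8 and 10.6 RPM in DDX3 there and was not called by level. Of ATF4 target genes with a leader peak, 1 of 9 had an enriched DDX3 peak in every K562 pool and 3 of 11 in both HEK293T pools. The EIF3G counts were 0 of 9 and 1 of 11, beside the same shares of all genes. In the rest of the gene, none of the 4 lists had a call in either line, as with nearly all genes tested there.

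Genes whose leader level ran most like that of a member over the 50 10plex libraries were ranked among 3128 genes by Pearson r of log2(RPM + 10), as a description only, since libraries share pools, RBPs and depth. For ODC1 they were ATP13A3 (r = 0.882), RAB2A (0.844) and NR2F6 (0.841). ATP13A3 is a polyamine transporter. For PPP1R15B they were ITGAV (0.884), NDST1 (0.876) and SLMAP (0.872), for ATF4 PPM1A (0.851), CDC25A (0.845) and FKBP1A (0.833), and for OAZ1 LUC7L2 (0.797), PSIP1 (0.795) and ATP5MC3 (0.771). For AMD1, ATF5, DDIT3 and PPP1R15A, with a leader peak in 10 to 18 libraries, the highest r was 0.67 to 0.743.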

How the data were processed

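The members and the gene lists were chosen with earlier results of these data known. Per the labels and the methods, the authors trimmed reads with cutadapt 2.8, split them by barcode, removed repeat reads, aligned unique reads to GRCh38 with STAR 2.7.6, removed PCR duplicates by UMI and called peaks with CLIPper in each library. The deposited files give, per peak, a CLIPper p-value, a display score, and −log10 P and log2 fold over an external background, which per the methods is RNA-seq. The read number is given only for K562 replicates 1 and 3 and singleplex RBFOX2. For K562 replicate 2, both HEK293T pools and singleplex SLBP, whole reads were recovered from that fold and P. Where reads were given, 96.4 to 99.5% of recovered numbers equalled them, by library. Peaks without a whole number counted as 0 reads, up to 3.79% of a library (PUM2, HEK293T replicate 1). For K562 replicate 3 the −log10 P and log2 fold deposited are over the complement control. For the other pools the deposited chi-squared statistic was used, and control reads were recovered from it. On K562 replicate 3, whose control reads follow from its fold, the same step returned 90.3 to 97.7% of them exactly, by RBP. The statistic there was computed from those same reads, so this checks the solution and not the deposited values. In the other pools the recovered control reads gave back the deposited statistic for 64.7% (RBFOX2, HEK293T replicate 2) to 100% of peaks (PUM2, K562 replicate 1). By library the share was 88.8 to 96.4% for DDX3 and 95.3 to 98.2% for EIF3G.

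Peaks were placed on GENCODE 44 canonical transcripts (not the MANE Select one for OAZ1), and a peak that overlapped the 5′ leader or the start codon by any base counted there with all its reads. Reads per peak were scaled to 1000000 peak reads of the library (RPM), and log2(RPM + 10) was taken. Labels were permuted within a pool, because its 10 libraries share a tube. The pseudocount, leader definition, place of a peak, low-value filter, limits, background, block and pools left out were varied. Tests used numpy 2.4.6 and scipy 1.17.1 and were tested on simulated data. Sequences were read from the GRCh38 reference by coordinates. The genes named are the 8 members, list genes with an enriched DDX3 or EIF3G leader or start peak in every replicate of a line, and the 3 genes most like each member, and other list genes called are named beside their counts.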

Additional observations from a re-analysis of the deposited data

Results flagged for a closer look

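In 5 comparisons of a member, every K562 pool lay on one side of 0 and every HEK293T pool on the other, as log2 differences from the other RBPs of the pool. The difference between the lines was not tested in any of them. EIF3G at the ATF4 leader gave -0.68 in K562, where no EIF3G library had a leader peak, and 2.88 in HEK293T. EIF3G in the rest of OAZ1 gave -1.09 in K562 and 1.1 in HEK293T. DDX3 in the rest of ODC1 gave 0.28 in K562 and -0.26 in HEK293T, where SNORA80B held 83.4% and 74.4% of the reads of all RBPs. DDX3 at the AMD1 leader gave -0.22 in K562 and 0.70 in HEK293T, and DDX3 with EIF3G there gave -0.25 and 0.37. Neither RBP had an AMD1 leader peak in K562, and the AMD1 comparisons share their DDX3 libraries. An EIF3G library held 31939 to 47007 peak reads in K562 and 72189 to 125034 in HEK293T, and the part of depth in these values was not tested.

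The singleplex RBFOX2 libraries of HEK293T enter none of the comparisons. Over both, they held 62 leader reads on ATF4, 46 on OAZ1, 23 on ODC1 and 11 on PPP1R15B, whereas the singleplex SLBP libraries of K562 held none on any member's leader.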

How the results depend on the processing

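Of 110 counts of members computed under other settings, 87 were unchanged or within 1.5 times. Permuting labels with no replicate block gave 3 members in K562 and 4 in HEK293T, and this change of pairing moved DDX3 alone in K562 from 2 to 3 members (OAZ1 added). Placing peaks by their centre called 5 members in K562 (ATF4 and PPP1R15A added). On the share of a gene's reads in the leader, 1 member (ODC1) of 1 testable was called in K562 and 2 (ATF4 and ODC1) of 2 in HEK293T. That setting, with PUM2 libraries left out, was chosen after seeing the data and called 2 and 3.

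A permutation test of EIF3G alone on 2 pools allows no p under 0.01, and in HEK293T it called 0 of 6114 genes, so a count of 0 says little. Leaving out 1 pool gave 2 to 4 members in K562 (PPP1R15B lost without replicate 2 and too sparse to test without replicate 3, PPP1R15A gained without replicate 1), 1 to 2 for DDX3 alone and, at that limit, 0 for EIF3G alone. In HEK293T it gave 0 for the pair and for DDX3 alone, where the smallest p that 1 pool allows is 0.0222 and 0.1, so DDX3 alone could not pass. Without 1 pool, PPP1R15A in K562 ran from -0.0020 to 1.32.

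Members with an enriched DDX3 peak in every K562 pool were 0 at P under 1e-05 and fold above 16, 2 at any fold (OAZ1 and ODC1), 3 over the external background (ATF4, OAZ1 and ODC1), 0 with repeats also left out of replicate 3, and 1 to 2 without 1 pool. In HEK293T they were 2 at any fold (ATF4 and PPP1R15B), 2 over the external background (ODC1 and PPP1R15B) and 1 without either pool. For EIF3G the external background gave 1 in K562 (OAZ1) and 2 in HEK293T (ODC1 and PPP1R15B), and any fold gave 2 in HEK293T (ATF4 and PPP1R15B).

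In the rest of the gene no call was made under any setting, and these uncalled values changed sign. In K562 OAZ1 was 1.1 by peak centre and 0.17 at a pseudocount of 1, and ATF5 ran from -1.12 to 0.070 without 1 pool. In HEK293T DDIT3 was -0.048 by peak centre, -0.22 at a pseudocount of 1 and -0.40 to 0.40 without 1 pool, and ODC1 was -0.36 to 0.080 without 1 pool. The cause of these changes was not tested. Depth limits EIF3G more than DDX3: 3 reads stand for up to 93.9 RPM in K562. Intervals are not given, because peak reads are kept only where a peak was called.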
